A study of Homo sapiens with 18 samples.

Results

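GDF15, CHAC1 and 8 further genes of the integrated stress response were followed through the cytarabine response of 3 U2OS lines. GDF15 and CHAC1 were chosen from the measured values, because their response to cytarabine differed between the lines. Their values are therefore given as a description, with no test. The standard errors (SE) given with them come from the fit and are not to be read as a test. The other 8 genes, ATF4, ATF3, DDIT3, DDIT4, TRIB3, ASNS, SESN2 and PPP1R15A, were named as members of the same pathway and were tested. The 10 members are among 25296 genes in the authors' count table. All 10 passed the filter on low counts that left 18226 tested genes, and all 10 had a mean of at least 50 counts.

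U2OS is a human osteosarcoma cell line, and 3 lines derived from it were compared. One derivative carried the retroviral vector MigR1 with no insert (EV), the next expressed the DNA methyltransferase DNMT3A in its normal form (WT), and the last a mutant form of it (MUT). The amino acid change is R882C in the series text but R882H in the sample labels, so only the word mutant is used. Cells of every line were taken without drug or 24 h into 10 µM cytarabine, a nucleoside that stalls DNA replication after incorporation. There were 3 biological replicates in each of the 6 groups, 18 libraries in all. The series text calls the cells without cytarabine a vehicle control. Whether a line was a clone or a pool of cells is not given in the sources used here. Each genotype was 1 line, so line and genotype cannot be told apart.

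In the integrated stress response, any of several kinases phosphorylates the translation factor eIF2. General protein synthesis then slows, while the mRNA of the transcription factor ATF4 is translated more. ATF4 acts with other factors on genes of amino acid supply, redox balance and cell death, and ATF3, DDIT3 (also called CHOP), TRIB3, CHAC1 and ASNS are textbook targets. PPP1R15A returns eIF2 to its active state. Because ATF4 is largely controlled through translation, the level of its mRNA does not report its protein. GDF15 is a secreted member of the TGF-beta family that acts on the receptor GFRAL in the brainstem, and it is a target of both ATF4 with DDIT3 and of p53.

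The members' promoters were read from RefSeq on GRCh38.p14, 250 bases before to 50 after each annotated start, and all 10 members matched, with 16 starts between them. Motifs known from this field or from core promoters were searched on both strands, and no match overlapped another. These were TGATGNAA, the C/EBP-ATF element to which ATF4 binds with a partner, TGACGTCA, the cyclic AMP response element, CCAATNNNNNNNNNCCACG, the ER stress element, and TATAAA, the core promoter element bound by TBP. The windows below are 30 bases long, run 5′ to 3′ in the direction of the gene, and have the matched letters in capitals. They are a selection of the matches, not all of them. In CHAC1 (chr15:40953251-40953280, plus strand) the C/EBP-ATF element lies on the minus strand, 209 to 202 bases before the start. In ASNS (chr7:97872458-97872487, minus strand) it lies 68 to 61 bases before, and in ATF3 (chr1:212565205-212565234, plus strand) 191 to 184 bases before. Both ASNS and ATF3 also have another annotated start, whose window lacks this element. PPP1R15A (chr19:48872352-48872381, plus strand) has the cyclic AMP response element 58 to 51 bases before the start. GDF15 (chr19:18386117-18386146, plus strand) has only TATAAA of these motifs, 29 to 24 bases before the start. TATAAA is not particular to GDF15. It also lies 30 to 25 bases before the start of PPP1R15A and 27 to 22 or 30 to 25 before the starts of ATF4. In ATF3 it lies 230 to 225 bases before the other start.
CHAC1: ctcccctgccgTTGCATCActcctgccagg
ASNS: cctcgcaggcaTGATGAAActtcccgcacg
ATF3: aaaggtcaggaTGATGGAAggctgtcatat
PPP1R15A: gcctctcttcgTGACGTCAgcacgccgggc
GDF15: aagtccggggacTATAAAggccggtccggc
TGATGNAA is present in 3.62% of the 35116 promoter windows in the table, TGACGTCA in 1.85%, the ER stress element in 0.0769% and TATAAA in 11.5%. Counted per gene, over the 27305 genes with a window, the shares are 4.46%, 2.25%, 0.0916% and 14%. TGATGNAA was found in 3 of the 10 members, TGACGTCA in 1, TATAAA in 4 and the ER stress element in none. No motif was found in the windows of DDIT3, DDIT4, TRIB3 and SESN2. A match is only a run of letters, and a window without one says nothing about a factor.

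The libraries held 15.4 to 21.9 M estimated counts. The TMM scaling factors were 0.86 to 0.96 in untreated and 1.04 to 1.11 in cytarabine-treated libraries. DNMT3A averaged 26.9 CPM (counts per 1000000 counts of the TMM-scaled library) in untreated EV, 133.3 in WT and 456.1 in MUT cells. It was above the EV level in both lines that carry DNMT3A. The SD over 3 replicates was 0.66, 5.17 and 184.6 CPM, so the level varied widely among untreated MUT replicates. The mesenchymal and bone genes VIM, SPARC and RUNX2 were present in all groups, the lowest group mean being 36.0 CPM for RUNX2. COL1A1, a further such gene, averaged 63.4 CPM in untreated and 67.8 in treated WT cells, against 165.5 to 271.5 CPM in the other groups. The epithelial gene EPCAM reached a group mean of at most 3.81 CPM. The leukocyte gene PTPRC, the endothelial gene PECAM1 and the hepatocyte gene ALB reached at most 1.06, 0.24 and 0.57 CPM. Replicate 2 of treated EV cells and replicate 2 of untreated MUT cells stood apart, with 5.18% and 4.47% of counts from mitochondrial genes against 2.70 to 3.87% in the other libraries. Calls of the members that change without them are given both ways. Untreated MUT replicate 3 was kept there, although it also differed from its group. Between replicates of untreated MUT cells, the chi-square of counts per degree of freedom was 23.2 (1 and 2), 27.7 (1 and 3) and 51.4 (2 and 3). In untreated EV cells it was at most 3.73. In bulk RNA, fewer expressing cells and less RNA per cell cannot be told apart.

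GDF15 (chr19:18374731-18389177, plus strand, in the authors' table, hg38) had the largest cytarabine response of the 10 members in each line. Untreated EV cells had 33.9, 32.7 and 36.2 CPM in replicates 1, 2 and 3, and treated EV cells 301.0, 248.4 and 289.3 CPM. Untreated WT cells had 23.1, 26.9 and 23.8 CPM, and treated WT cells 459.0, 417.9 and 494.2 CPM. Untreated MUT cells had 27.1, 16.9 and 29.0 CPM, and treated MUT cells 370.1, 340.5 and 374.3 CPM. Every treated library thus stood well above every untreated one. The order of the treated lines was EV, MUT, WT, with no overlap between neighbours. Without drug EV was highest instead: its 3 libraries lay above those of both other lines, while WT and MUT overlapped.

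**Figure D1:**
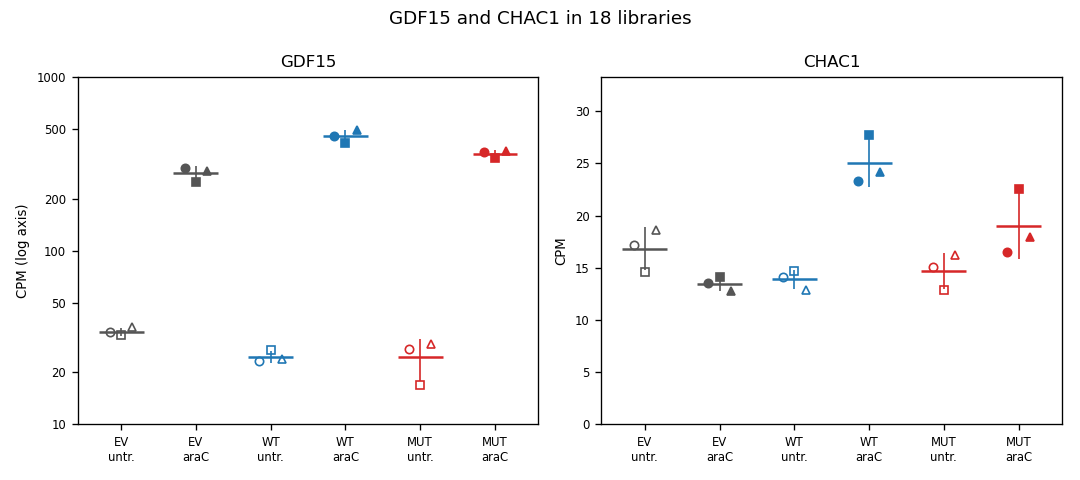
GDF15 (left, log axis) and CHAC1 (right, linear axis) in CPM for every library of the 3 lines. Open symbols are untreated and filled symbols cytarabine-treated cells, circle, square and triangle are replicates 1, 2 and 3, the horizontal line is the mean and the vertical bar ± 1 SD. Treated GDF15 runs from 248.4 to 494.2 CPM with WT highest, and treated CHAC1 is highest in WT and lowest in EV.

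The fitted cytarabine effect on GDF15 was a log2 fold change of 3.03 (SE 0.136) in EV, an 8.16-fold higher level. It was 4.21 (SE 0.143), or 18.6-fold, in WT and 3.89 (SE 0.142), or 14.8-fold, in MUT cells. The log2 effect in WT exceeded that in EV by 1.19 (SE 0.184). This difference of effects has a part from each condition, since untreated GDF15 was lower in WT than in EV (log2 difference -0.48) and treated GDF15 was higher (0.71). In MUT the log2 effect exceeded that in EV by 0.86 (SE 0.185), with -0.49 from the untreated and 0.37 from the treated cells. This value leans on the untreated MUT replicate at 16.9 CPM, one of the libraries that stood apart. Without that replicate the MUT effect was 3.65, its difference from EV 0.62 and its difference from WT -0.56, against -0.33 with it.

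CHAC1 (chr15:40952962-40956520, plus strand) encodes an enzyme that breaks down glutathione. Its response had a different sign in the lines. In EV cells it was 17.2, 14.6 and 18.6 CPM untreated and 13.5, 14.2 and 12.7 CPM treated, a log2 fold change of -0.32 (SE 0.126). In WT cells it was 14.1, 14.7 and 12.9 CPM untreated and 23.3, 27.7 and 24.2 CPM treated, a log2 fold change of 0.85 (SE 0.123). In MUT cells it was 15.04, 12.8 and 16.2 CPM untreated and 16.5, 22.6 and 17.997 CPM treated, a log2 fold change of 0.37 (SE 0.124). Treated EV cells were below all untreated EV cells, while treated WT and MUT cells were above theirs; the margin was narrow in EV and MUT. The 3 untreated lines overlapped, and the treated lines were ordered EV, MUT, WT without overlap. Set against EV, the log2 effect was 1.17 higher in WT (SE 0.176) and 0.69 higher in MUT cells (SE 0.177). CHAC2, the related glutathione-degrading enzyme, rose in WT cells (log2 fold change 0.51) and had values of -0.12 in EV and 0.27 in MUT cells, which did not pass the test (that in MUT passed in 4 of 27 alternatives).

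The 2 genes were most like different sets of genes. By Pearson's r of log2 CPM over the 18 libraries, among 13681 genes whose log2 CPM averaged 1 or more, the nearest to GDF15 were APLP1 (0.990), EBI3 (0.990), SLC16A12 (0.989), P4HTM (0.988) and ACTBL2 (0.987). The libraries fall into treated and untreated, so these high values largely follow that split. The nearest to CHAC1 were LINC00707 (0.85), MGME1 (0.85), MYO7B (0.82), S1PR4 (0.82) and STXBP6 (0.81). Their cytarabine effects were larger in WT than in EV, as for CHAC1, and S1PR4, for one, had log2 fold changes of 0.16, 0.96 and 0.40 in the order EV, WT, MUT. Picking genes by their likeness to CHAC1, itself chosen for its response, builds in such a pattern, so it is only a description. None of the 5 combined a fall in EV past the test with a rise in WT.

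The other 8 members did not share one direction. In EV cells 1 of the 8 rose and 3 fell, in WT 3 rose against 1 that fell, and in MUT 2 against 3, at an adjusted p under 0.05 in edgeR's quasi-likelihood test with Benjamini-Hochberg adjustment over all tested genes. Of all tested genes, 49.1% passed in EV (26.1% higher and 22.9% lower), 49.0% in WT (26.3% and 22.7%) and 56.3% in MUT cells (30.4% and 25.9%). The members' 4 of 8, 4 of 8 and 5 of 8 are near these shares, so the number of changed members is not a result about the pathway. The median log2 fold change of the 8 members was 0.05 in EV, 0.21 in WT and -0.05 in MUT cells, beside 0.05, 0.03 and 0.05 over all tested genes. The adjusted p-values that follow are from this test.

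**Figure D2:**
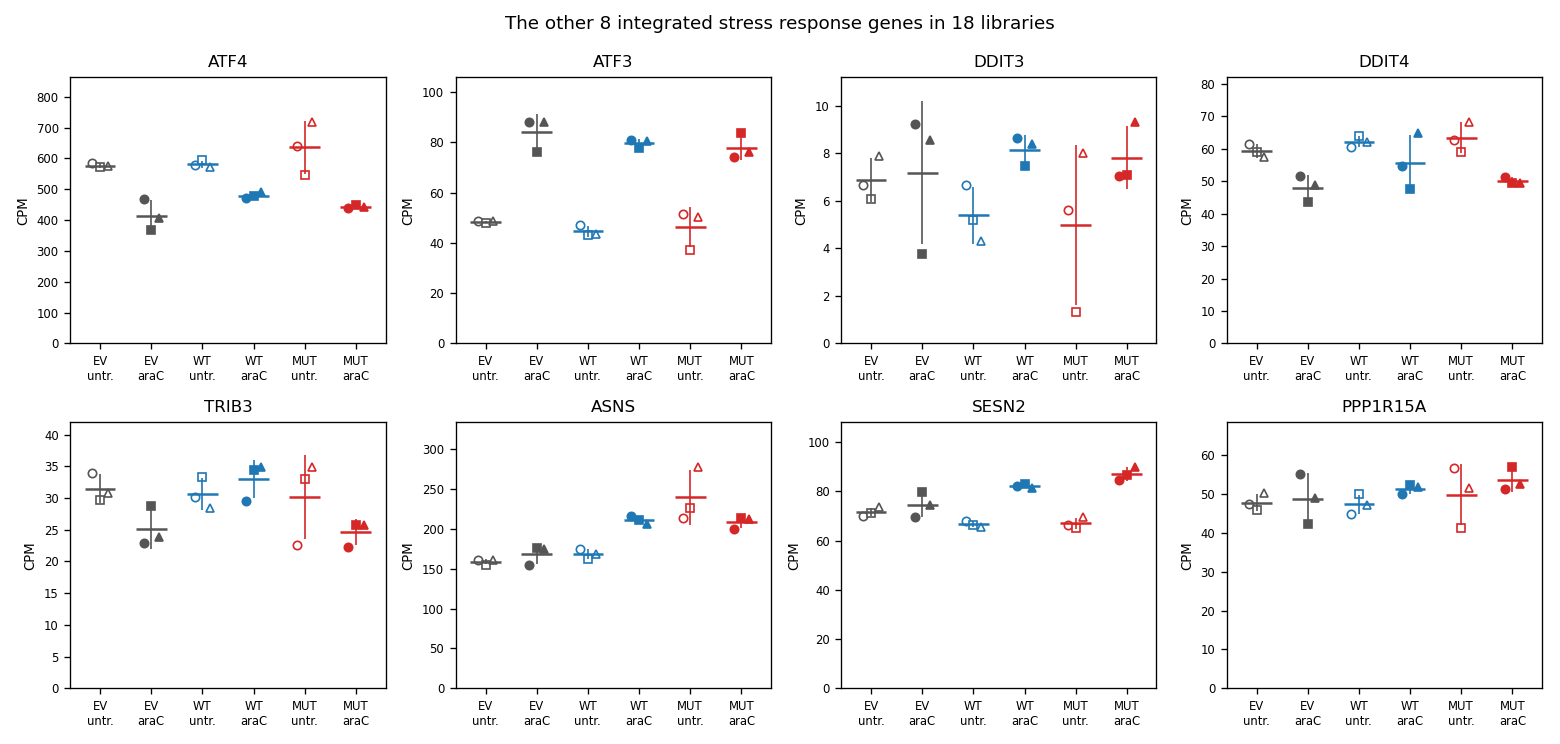
CPM of the other 8 members in every library, on linear axes from 0. Open symbols are untreated and filled symbols cytarabine-treated cells, circle, square and triangle are replicates 1, 2 and 3, the line is the mean and the bar ± 1 SD. ATF3 separates by treatment in all 3 lines upwards and ATF4 downwards, and untreated MUT cells stand highest for ASNS.

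ATF4 (chr22:39519695-39522686, plus strand), the central transcription factor, fell in all 3 lines at the mRNA level. In EV cells it was 584, 570 and 574 CPM untreated and 469, 367 and 407 CPM treated. In WT cells it was 579, 594 and 571 CPM untreated and 471, 477 and 489 CPM treated. In MUT cells it was 640, 547 and 719 CPM untreated and 439, 448 and 444 CPM treated. No treated library reached the level of an untreated one of its line. The log2 fold changes were -0.48 (SE 0.0864, adjusted p 1.4e-04) in EV, -0.28 (SE 0.0862, adjusted p 0.0114) in WT and -0.52 (SE 0.0864, adjusted p 4.4e-05) in MUT cells. All 27 alternative analyses kept these calls. The differences between the lines' effects did not pass, the adjusted p being 0.634 between WT and EV, 0.897 between MUT and EV and 0.355 between MUT and WT. Without both replicates that stood apart, the last passed (-0.34, adjusted p 0.0347), the log2 effect in MUT then being -0.62 and in WT -0.28.

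ATF3 (chr1:212565334-212620778, plus strand), a stress-induced factor of the same family and also a p53 target, rose by a like amount in all 3 lines. In EV cells it was 48.7, 48.1 and 48.6 CPM untreated and 88.0, 76.0 and 88.2 CPM treated. In WT cells it was 47.1, 43.0 and 43.5 CPM untreated and 80.7, 77.9 and 80.4 CPM treated. In MUT cells it was 51.4, 37.2 and 50.1 CPM untreated and 73.9, 83.5 and 76.0 CPM treated. Treated and untreated libraries did not overlap in any line. The log2 fold changes were 0.80 (SE 0.0947, adjusted p 1.2e-06), 0.84 (SE 0.0947, adjusted p 6.2e-07) and 0.75 (SE 0.0946, adjusted p 1.7e-06) in EV, WT and MUT cells. ATF3 was thus the member beside GDF15 that rose in every line, and the log2 effects in WT and MUT differed from that in EV by 0.04 and -0.05 (adjusted p 0.960 and 0.894).

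DDIT3 (chr12:57516588-57521738, minus strand), the death-promoting factor CHOP, was the least abundant member in counts and passed in no line. In EV cells it was 6.66, 6.08 and 7.87 CPM untreated and 9.24, 3.75 and 8.55 CPM treated. In WT cells it was 6.67, 5.19 and 4.29 CPM untreated and 8.63, 7.46 and 8.37 CPM treated. In MUT cells it was 5.62, 1.32 and 7.995 CPM untreated and 7.03, 7.09 and 9.33 CPM treated. The lowest values, 1.32 and 3.75 CPM, came from the replicates that stood apart. The log2 fold changes were 0.08 (SE 0.367), 0.60 (SE 0.368) and 0.64 (SE 0.371), with adjusted p of 0.875, 0.190 and 0.152. In WT the treated libraries all lay above the untreated ones, and without both of those replicates the WT change passed (0.59, adjusted p 0.00728), while that in MUT was 0.20 (adjusted p 0.387). The MUT change also passed without untreated MUT replicate 3 (1.098, adjusted p 0.0199). DDIT3 overlaps MARS over 983 bases and MBD6 over 1029 bases on the opposite strand. Strand handling in the counting is not given in the sources used here, so reads of DDIT3 and of these much more abundant genes may not have been told apart.

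TRIB3 (chr20:362835-397560, plus strand), a pseudokinase induced by ATF4 and DDIT3 that restrains AKT signalling and ATF4 itself, did not rise past the test in any line. Its group means lay between 24.6 and 32.98 CPM. The log2 fold change was -0.33 (SE 0.132, adjusted p 0.0485) in EV, 0.11 (SE 0.130, adjusted p 0.515) in WT and -0.29 (SE 0.132, adjusted p 0.0660) in MUT cells. The EV call sits at the threshold: it was lost in 16 of 27 alternatives, with adjusted p up to 0.169, among them the loss of any 1 WT library or untreated EV library. The MUT change passed in 6, and reached -0.47 without untreated MUT replicate 1 (adjusted p 0.00191). Among treated cells TRIB3 was higher in WT than in EV (log2 difference 0.39, adjusted p 0.0460, lost in 16 of 27) and lower in MUT than in WT (-0.42, adjusted p 0.0276, lost without treated MUT replicate 1 or 3 or treated WT replicate 2 or 3).

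PPP1R15A (chr19:48872392-48876058, plus strand), also called GADD34, directs protein phosphatase 1 to eIF2 and ends the response. Its libraries ran from 41.1 to 57.0 CPM, and treated and untreated cells overlapped in EV and MUT. Its log2 fold changes of 0.03, 0.12 and 0.10 in EV, WT and MUT cells did not pass (adjusted p 0.819, 0.350 and 0.388) and did not pass in any of the 27 alternatives. PPP1R15B, the constitutive partner of the same phosphatase, fell in EV cells (log2 fold change -0.25) and had values of -0.13 in WT and 0.00 in MUT cells that did not pass. Its EV call was lost without treated EV replicate 1 (-0.16, adjusted p 0.115), without untreated EV replicate 3 (-0.22) and with upper-quartile scaling (-0.17).

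ASNS (chr7:97852118-97872543, minus strand), which makes asparagine and is a classical ATF4 target, had line-dependent levels before any drug. In EV cells it was 160.9, 155.0 and 160.5 CPM untreated and 154.2, 176.4 and 175.0 CPM treated. In WT cells it was 174.0, 161.6 and 168.4 CPM untreated and 215.9, 211.0 and 205.5 CPM treated. In MUT cells it was 213.6, 226.2 and 277.8 CPM untreated and 199.8, 212.8 and 212.6 CPM treated. All untreated MUT libraries lay above all untreated EV and WT libraries, by log2 differences of 0.59 (SE 0.0817, adjusted p 7.1e-05) and 0.51 (SE 0.0814, adjusted p 2.0e-04). ASNS was the only one of the 8 members past the test between untreated lines, a comparison that 19.9% of tested genes passed between MUT and EV, 21.2% between MUT and WT and 11.7% between WT and EV. Without untreated MUT replicate 2, ATF4 was also higher in untreated MUT than in EV (0.27, adjusted p 0.0215) and WT cells (0.26, adjusted p 0.0228), and ATF3 was higher in MUT than in WT cells (0.22, adjusted p 0.0399). These 3 calls were also made without both replicates that stood apart, with adjusted p of 0.00912, 0.0126 and 0.0459. With cytarabine, WT and MUT cells were both above EV (0.32, adjusted p 0.00982, and 0.31, adjusted p 0.0161) and no longer apart from each other (-0.02, SE 0.0809, adjusted p 0.914). Without treated EV replicate 1 neither treated difference from EV passed (adjusted p 0.0531 and 0.0774), and without treated MUT replicate 2 or 3 that of MUT did not (adjusted p 0.0623 and 0.0636). ASNS rose in WT (log2 fold change 0.33, SE 0.0813, adjusted p 0.00240). Its value was 0.09 in EV (SE 0.0816, adjusted p 0.411). It fell in MUT (-0.20, SE 0.0810, adjusted p 0.0435), a call lost in 15 of 27 alternatives, 13 of them the loss of 1 library, and at -0.11 without untreated MUT replicate 3, the library at 277.8 CPM. ASNS shares its whole span with the same-strand transcript AC079781.5, whose mean of 51.8 counts is small beside it.

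SESN2 (chr1:28259527-28282492, plus strand), a leucine sensor that restrains mTORC1 and a target of both ATF4 and p53, rose in WT and MUT cells. In EV cells it was 69.99, 71.3 and 73.5 CPM untreated and 69.6, 79.7 and 74.5 CPM treated, which overlapped. In WT cells it was 67.9, 66.5 and 65.6 CPM untreated and 82.2, 83.1 and 81.1 CPM treated. In MUT cells it was 66.2, 65.3 and 69.6 CPM untreated and 84.5, 86.4 and 90.0 CPM treated. Neither WT nor MUT had any overlap between treatments. The log2 fold changes were 0.06 (SE 0.0601, adjusted p 0.449, or 0.13 and 0.0482 with upper-quartile scaling), 0.30 (SE 0.0598, adjusted p 3.5e-04) and 0.38 (SE 0.0598, adjusted p 2.7e-05). A call in 2 lines and none in the third is not a difference between lines: the MUT effect exceeded the EV effect by 0.32 with adjusted p of 0.106. That difference passed with DESeq2's Wald test (0.28, adjusted p 0.0340) and without both replicates that stood apart (0.35, adjusted p 0.0227).

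DDIT4 (chr10:72273920-72276037, plus strand), also called REDD1, another brake on mTORC1, moved the other way. Its untreated libraries ran from 57.5 to 68.4 CPM and its treated ones from 43.5 to 64.9 CPM. It fell in EV (log2 fold change -0.31, SE 0.0912, adjusted p 0.00918) and MUT cells (-0.34, SE 0.0904, adjusted p 0.00324), where treated and untreated libraries did not overlap. In WT cells the value was -0.16 (SE 0.0901, adjusted p 0.159), with treated replicate 3 at 64.9 CPM above all untreated libraries. Without that replicate the WT change passed as well (-0.28, adjusted p 0.0135). The EV call was lost without treated EV replicate 2 (-0.24, adjusted p 0.0505) and with upper-quartile scaling (-0.23, adjusted p 0.0572).

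**Figure D3:**
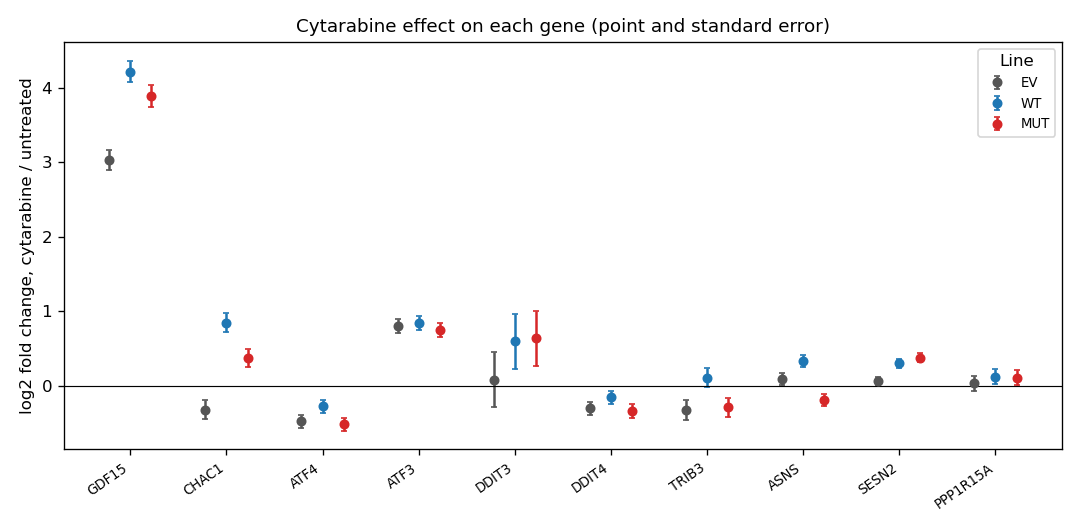
Log2 fold change of each of the 10 members with cytarabine in EV, WT and MUT cells, with bars of ± 1 SE from the fit. GDF15 stands between 3.03 and 4.21 in every line, ATF3 lies near 0.8 in all 3, ATF4 is below 0 in all 3, and CHAC1 is below 0 only in EV among the lines.

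Compared directly between lines, the cytarabine effects of the 8 members mostly did not differ past the test. In edgeR, 0 of the 8 passed between WT and EV, 0 between MUT and EV and 1 between MUT and WT, where 0.285%, 0.214% and 1.00% of all tested genes passed. At an unadjusted p under 0.05 there were 3, 2 and 2 of the 8, and DESeq2's Wald test called 0, 1 and 1. The 1 member was ASNS, whose log2 effect in MUT differed from that in WT by -0.53 (SE 0.115, adjusted p 0.0317). This call was lost in 13 of 27 alternatives, with adjusted p up to 0.0983: in the fit of the compared groups alone and without any single library of untreated EV, untreated WT, treated WT or treated MUT cells. Among treated cells, 2 of the 8 were higher in WT than in EV (TRIB3 and ASNS), where 7.41% of tested genes passed in that direction. Without both replicates that stood apart SESN2 joined them (0.19, adjusted p 0.0327). Another 2 were higher in MUT than in EV, ASNS and SESN2 (log2 difference 0.22, adjusted p 0.0167, lost without treated EV replicate 1 or 3 or treated MUT replicate 3), where 6.85% did, and 1 was lower in MUT than in WT (TRIB3), where 9.48% did. These comparisons share their control libraries, so they do not repeat each other.

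The wider pathway was described with lists that leave out the 10 members, and no list was tested as a set. Of all tested genes, 26.1% rose and 22.9% fell in EV, 26.3% and 22.7% in WT, and 30.4% and 25.9% in MUT cells. The counts of each list are to be read beside these shares. Upstream, of 21 genes for the eIF2 kinases and 5 of their regulators (DELE1, OMA1, GCN1, IMPACT and DNAJC3), eIF2, its exchange factor eIF2B and its phosphatases, 3 rose against 14 that fell in EV, 3 against 12 did so in WT and 3 against 11 in MUT cells. The list's median log2 fold changes were -0.31, -0.25 and -0.35, below the medians of all tested genes given above. Among the kinases, EIF2AK2 (PKR, which senses double-stranded RNA) rose in all 3 lines, by 0.36, 0.45 and 0.72, and so did EIF2AK3 (PERK, which senses ER stress), by 0.30, 0.41 and 0.52, although the EV call of EIF2AK3 was lost without treated EV replicate 2 (adjusted p 0.0520). EIF2AK1 (HRI, the heme-regulated kinase) fell, with -0.18, -0.25 and -0.17, a call lost in EV with upper-quartile scaling (-0.11) and in MUT cells without treated MUT replicate 3 (adjusted p 0.0564) or with the compared groups alone. EIF2AK4 (GCN2, which senses uncharged tRNA) had values of -0.18, -0.08 and -0.07 that did not pass. The eIF2B subunit EIF2B5 fell in every line (-0.73, -0.64 and -0.81), as did EIF2B4 (-0.41, -0.46 and -0.61) and the phosphatase subunit PPP1CC (-0.57, -0.67 and -0.66).

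Downstream, more genes of amino acid supply fell than rose in EV cells. Of 10 amino acid transport genes, 2 rose against 7 that fell in EV, 3 against 4 did so in WT and 4 against 4 in MUT cells. Over all tested genes, 26.1% rose and 22.9% fell in EV, 26.3% and 22.7% in WT, and 30.4% and 25.9% in MUT cells. Compared directly between lines, 0 of the 10 effects differed past the test. SLC7A5, the light chain of the leucine transporter LAT1, fell in every line. It was 792.7 ± 10.8 CPM untreated and 295.6 ± 37.7 treated in EV (mean ± SD, n = 3), 672.4 ± 14.0 and 327.0 ± 28.0 CPM in WT, and 656.7 ± 83.0 and 265.6 ± 17.4 CPM in MUT cells. Its heavy chain SLC3A2 fell by 0.91, 0.65 and 0.79 on the log2 scale, and the arginine and lysine carrier SLC7A1 by 0.73, 0.39 and 0.42. SLC1A4, a carrier of neutral amino acids, rose instead, by 0.38, 0.78 and 0.62. The list's medians were -0.44, -0.12 and -0.02, and the last turned to 0.02 with upper-quartile scaling.

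Of 11 amino acid synthesis genes, 2 rose against 6 that fell in EV, 6 against 2 did so in WT and 2 against 5 in MUT cells, with medians of -0.30, 0.22 and -0.12. The shares of all tested genes, higher and lower, were 26.1% and 22.9% (EV), 26.3% and 22.7% (WT), and 30.4% and 25.9% (MUT). ALDH18A1 and PYCR1, enzymes of proline synthesis, fell in every line (-0.41, -0.45 and -0.54, and -0.33, -0.29 and -0.52), and CTH, which makes cysteine, rose in every line (0.30, 0.58 and 0.67). The EV call of CTH (adjusted p 0.0484) was lost in 20 of 27 alternatives, with adjusted p up to 0.246. PSAT1, of serine synthesis, fell in EV (-0.30) and rose in WT (0.22), and had a value of -0.12 in MUT cells that did not pass. Its difference between WT and EV was 0.52 (SE 0.0898, adjusted p 0.0166). PSAT1 was the 1 of the 11 genes whose effect differed past the test between WT and EV. Between MUT and EV and between MUT and WT, 0 of the 11 did, so the counts do not show that the lines differ. Of 12 aminoacyl-tRNA synthetase genes, 0 rose against 10 that fell in EV, 2 against 6 did so in WT and 1 against 10 in MUT cells. Compared directly between lines, 0 of these 12 effects differed past the test. The leading members were EPRS (-0.49, -0.34 and -0.54), MARS (-0.46, -0.35 and -0.60), TARS (-0.42, -0.36 and -0.62) and YARS (-0.65, -0.34 and -0.67). MARS is the gene that overlaps DDIT3.

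Secreted and regulatory genes of the response were split. For both lists here, the shares of all tested genes were 26.1% higher and 22.9% lower in EV. They were 26.3% and 22.7% in WT, and 30.4% and 25.9% in MUT cells. Of 21 further factors and effectors, 9 rose against 4 that fell in EV, 9 against 3 did so in WT and 10 against 4 in MUT cells, with medians of 0.09, 0.11 and 0.18. FGF21, a secreted metabolic hormone often measured beside GDF15, rose by 2.84, 3.07 and 3.56 on the log2 scale from group means of 0.56 to 1.11 CPM. INHBE, a TGF-beta family hormone, rose by 1.98, 2.34 and 2.18, STC2, a secreted glycoprotein, by 1.11, 2.01 and 1.71, and CCPG1, an ER-phagy receptor, by 1.11, 1.02 and 1.16. ATF5, a factor related to ATF4 that was picked out after its values were seen, fell by 1.07, 0.87 and 1.13. Of 20 genes of the other branches of the ER stress response, 10 rose against 2 that fell in EV, 11 against 0 did so in WT and 7 against 3 in MUT cells. EDEM1, which sorts misfolded proteins, rose by 0.61, 0.57 and 0.79, PDIA4, a disulfide isomerase, by 0.54, 0.34 and 0.52 (the WT call being lost without untreated WT replicate 1 and with the authors' factors), and DNAJB9, an ER co-chaperone, by 0.35, 0.58 and 0.45. HSPA5 (BiP), the main ER chaperone, rose in WT cells (0.28) and had values of 0.14 and 0.07 in EV and MUT cells that did not pass (that in EV passed in 5 of 27 alternatives).

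**Figure D4:**
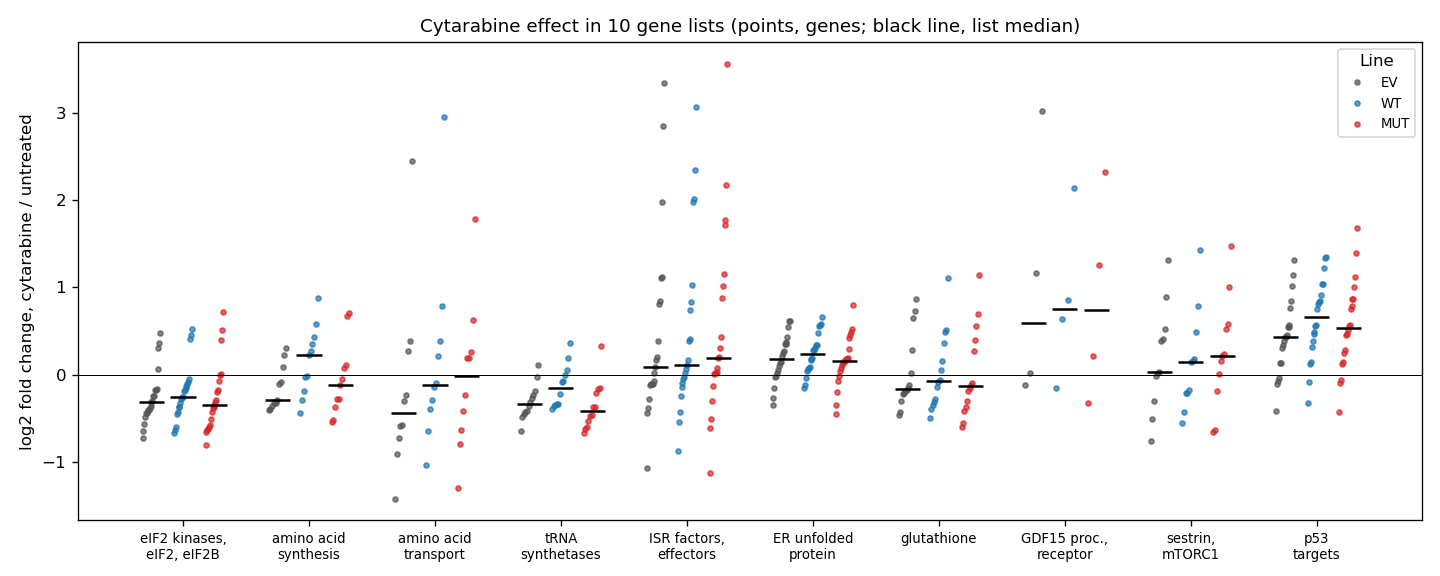
Log2 fold change with cytarabine of every tested gene in 10 gene lists (points) in EV, WT and MUT cells, with the median of each list as a black line. The medians of the p53 targets are 0.43, 0.66 and 0.53, and those of the eIF2 genes and of the tRNA synthetases are below 0 in all 3 lines.

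Since GDF15, ATF3 and SESN2 are also p53 targets, other p53 targets were set beside them. Of 20 tested, 14 rose against 1 that fell in EV, 16 against 1 did so in WT and 15 against 1 in MUT cells, with median log2 fold changes of 0.43, 0.66 and 0.53. Among all tested genes, 26.1% rose and 22.9% fell in EV, 26.3% and 22.7% in WT, and 30.4% and 25.9% in MUT cells. CDKN1A, which encodes the cell cycle inhibitor p21, rose by 1.14, 1.34 and 1.39, and MDM2, the ubiquitin ligase of p53, by 0.43, 0.81 and 0.78. TP53INP1, a stress-induced cofactor of p53, rose by 1.31, 1.35 and 1.68, RRM2B, a ribonucleotide reductase subunit, by 0.84, 0.91 and 1.12, and FDXR, a mitochondrial reductase, by 1.01, 1.22 and 1.00. The part of p53 or of ATF4 in the response of GDF15 was not tested. Of 4 tested genes that process GDF15 or form its receptor, 2 rose against 0 that fell in EV, and 2 against 1 did so in both WT and MUT cells. FURIN, a protease that cleaves its precursor, fell in WT (-0.15) and MUT cells (-0.33) and had a value of -0.12 in EV cells that did not pass (it passed in 4 of 27 alternatives). The WT call of FURIN was lost in 11 of 27 alternatives, with adjusted p up to 0.130. PCSK5, a related protease, rose by 1.16, 0.86 and 1.26. No gene under the symbol GFRAL is in the authors' count table.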

How the data were processed

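RNA of 18 libraries was sequenced by the authors. Libraries were made with the NEBNext Ultra RNA kit, per the labels' protocols, and the submitters' processing notes name CASAVA, STAR 2.6.1d and hg38. The counting tool and its strand handling are not given in the sources used here. The authors deposited estimated counts per gene, 70.9% of them whole numbers, and a normalized signal for 19591 genes, which served only to take the authors' library factors for an alternative scaling.

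Estimated counts were rounded, filtered with filterByExpr and TMM-scaled. One quasi-likelihood fit in edgeR 4.0.16 (R 4.3.3) held a coefficient for each of the 6 groups, tested on simulated data first. The simulation gave all genes and groups the same spread and checked only the cytarabine effect in MUT. It therefore says nothing on the unequal spread of the groups here. p-values were adjusted by Benjamini-Hochberg over 18226 genes in each comparison, with calls under 0.05. Standard errors are the fold change over the root of F. Their spread is estimated for each gene over all 6 groups together, so they do not measure the spread of the compared groups alone. Each group was 3 biological replicates of 1 line.

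The members and lists were chosen with earlier results of these data known. Named genes were, from each list, up to 4 called alike in all 3 lines with the largest mean change, up to 2 with the smallest adjusted p for a difference between lines (both only where log2 CPM averaged 1 or more, which leaves out genes of lower level with larger changes), the 5 nearest to GDF15 and CHAC1, and a few fixed pathway genes. Alternatives were 3 other scalings, DESeq2 1.42.0, other filters, fits of the compared groups alone, a replicate block and leaving out each library. Leaving out both replicates that stood apart was chosen after seeing the data.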

Additional observations from a re-analysis of the deposited data

Results flagged for a closer look

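Several genes had cytarabine effects that differed between lines in edgeR's quasi-likelihood test of the difference, with adjustment over all tested genes. ASNS had a log2 effect in MUT that differed from that in WT by -0.53 (SE 0.115, adjusted p 0.0317). The ASNS call was lost in 13 of 27 alternatives, with adjusted p up to 0.0983. Untreated ASNS was higher in MUT than in WT (log2 difference 0.51), while treated ASNS was close (-0.02). For PSAT1, the effect in WT exceeded that in EV by 0.52 (SE 0.0898, adjusted p 0.0166), and the call was lost in 6 of 27 alternatives, with adjusted p up to 0.0738, each of them without 1 library (replicate 1 or 2 of untreated EV, treated WT or untreated WT cells). Untreated PSAT1 was lower in WT than in EV (log2 difference -0.26) and treated PSAT1 higher (0.26). For TIGAR, a p53 target that limits glycolysis, the effect in WT exceeded that in EV by 0.71 (SE 0.138, adjusted p 0.0375). The 3 log2 fold changes were 0.13 (EV), 0.84 (WT) and 0.28 (MUT). TIGAR averaged 76.2 CPM in untreated EV and 51.6 in untreated WT cells, and 83.2 and 92.0 CPM in the treated cells. The lower untreated level in WT is thus part of the TIGAR difference too. Its call was lost in 12 of 27 alternatives, with adjusted p up to 0.125, each without 1 library (any WT or treated EV library, untreated EV replicate 1 or 3, or treated MUT replicate 3). HMOX1, the heme-degrading enzyme, had an effect in MUT that differed from that in WT by -0.55 (SE 0.130, adjusted p 0.0446), with 0.65 (EV), 1.11 (WT) and 0.55 (MUT). HMOX1 averaged 24.2 CPM in untreated WT and 30.1 in untreated MUT cells, and 52.2 and 44.1 CPM in the treated cells. Its call was lost in 16 of 27 alternatives, with adjusted p up to 0.118: with the compared groups alone, with the replicate block (0.0579), and without any 1 WT, untreated EV or treated MUT library or treated EV replicate 2 or 3.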

How the results depend on the processing

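Over the 8 tested members, 12 comparisons and 27 alternatives, 2493 of 2592 values kept their call, 73 lost it, 26 gained one and 0 turned a called direction; 80 values without a call on either side changed sign. The number of members called changed as follows, and the cause was not tested. For MUT against EV effects, 0 became 1 with DESeq2's Wald test and 1 without both libraries that stood apart. For MUT against WT effects, 1 became 0 in the fit of the compared groups alone and 2 without both libraries. Untreated, without both libraries, 1 became 2 between MUT and EV and 3 between MUT and WT. Treated WT against EV gave 1 instead of 2 with DESeq2 size factors, upper-quartile factors and the authors' factors and 3 without both libraries, and treated MUT against WT gave 2 instead of 1 in the compared groups alone. Leaving out 1 library at a time gave 3 to 4 called members in EV, 4 to 5 in WT and 4 to 6 in MUT cells. For differences of effects it gave 0 to 0 against EV in both lines and 0 to 2 for MUT against WT. For untreated cells it gave 0 to 0 (WT against EV), 1 to 2 (MUT against EV) and 1 to 3 (MUT against WT). For treated cells it gave 1 to 2, 0 to 2 and 0 to 1 in the same order. The description of GDF15 kept its order of lines throughout, with log2 effects of 2.95 to 3.11 in EV, 4.15 to 4.28 in WT and 3.65 to 3.99 in MUT cells. These fits reuse the values from which GDF15 was chosen, so the kept order is no support for a difference between lines.

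The replicate numbers did not pair the samples throughout: correlations of same-numbered deviations ran from -0.18 to 0.35. Between some groups the same number matched best, as for replicate 3 of treated EV with untreated MUT (0.35) and treated MUT cells (0.31). What these replicates shared was not tested. With the replicate number as a block, the called members were 4 in EV, 4 in WT and 6 in MUT cells, against 4, 4 and 5 without it. DDIT3 had the widest errors of the 8 members, with SEs of 0.367 to 0.371 for its cytarabine effects.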

Other observations

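Glutathione genes, the substrate side of CHAC1, moved in both directions. Of 14 tested, 3 rose against 4 that fell in EV, 3 against 5 did so in WT and 4 against 6 in MUT cells, with median log2 fold changes of -0.16, -0.07 and -0.14. Of all tested genes 49.1%, 49.0% and 56.3% passed in these lines, so the counts are not read as a result about glutathione genes. GCLC, the catalytic subunit of glutathione synthesis, fell (log2 fold change -0.46 in EV, -0.50 in WT, -0.30 in MUT), and GPX4, which reduces lipid peroxides, fell likewise (-0.43, -0.40 and -0.42). GGT7, of the gamma-glutamyltransferase family, rose by 0.73, 0.48 and 0.70.

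Of 11 genes of the sestrins' mTORC1 pathway, 4 rose against 3 that fell in EV, 3 against 3 did so in WT and 5 against 3 in MUT cells. The shares over all tested genes were 49.1%, 49.0% and 56.3%, and these counts too are not read as a result. SESN1 rose by 0.41, 0.78 and 0.58, and SESN3 by 0.88, 0.49 and 1.01; the WT call of SESN3 was lost without replicate 1 or 3 of treated or of untreated WT cells (adjusted p up to 0.119). RRAGD, a Rag GTPase, rose by 1.31, 1.42 and 1.47, and RPTOR, the scaffold of mTORC1, fell (-0.76, -0.43 and -0.66). RET, the co-receptor of GFRAL, picked out after its values were seen, rose from group means of 0.28 to 0.38 CPM to 3.09 in EV, 1.25 in WT and 1.83 CPM in MUT cells.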
